A study of Mus musculus with 2 samples.

Results

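The genes described here serve protein folding in the endoplasmic reticulum and the stress response that guards it. They were 33 genes chosen by symbol, and all 33 had a row among the 50608 rows of the deposited table. The study sequenced RNA of peritoneal macrophages, the phagocytes of the abdominal cavity, from C57BL6J mice. The labels record males and females pooled and a stage of E15.5 for both samples. One sample was given DMSO, the solvent, and the other GW3965, a compound that activates the liver X receptors (LXRs), nuclear receptors for oxidised cholesterol. Each group had 1 library, so no difference below has a replicate check, no test of the treatment was possible, and all values describe these 2 libraries. The labels give neither dose nor time of treatment. The column read as GW3965 matches its sample by the opening letters of the sample's description only.

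Proteins bound for the cell surface, the lysosome or secretion fold inside the endoplasmic reticulum with the help of chaperones and of enzymes that form disulfide bonds. When unfolded protein accumulates, the membrane sensors Ern1 (IRE1 alpha), Eif2ak3 (PERK) and Atf6 signal to the nucleus. Ern1 splices the mRNA of the transcription factor Xbp1, and cleaved Atf6 and spliced Xbp1 raise chaperone and degradation genes. Eif2ak3 phosphorylates the initiation factor eIF2 alpha, which slows translation in general but favours that of Atf4. Atf4 in turn activates Ddit3 (CHOP) and genes of amino acid metabolism, a branch that amino acid shortage also uses. In macrophages the response is known from cholesterol loading, which can disturb the membrane of the endoplasmic reticulum.

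The folding genes and the Atf4 and Ddit3 branch differed in the motifs matched in their promoters. The motifs were chosen from what is known of this response, so matches in its genes are a description and not independent support. RefSeq promoter windows, 250 bases before to 50 after a start site on GRCm38.p6, matched 29 of the 33 genes; Atf6, Derl1, Hyou1 and Manf had none. The endoplasmic reticulum stress element (ERSE) was searched on both strands as CCAAT, then 9 bases of any kind, then CCACG. It was found in 9 of the 29 genes, against 0.119% of all 32851 windows. Of the 13 folding genes with a window, 7 held it, and of the 6 genes of the Atf4 and Ddit3 branch, 0. The matches are shown because they show which of these genes hold the element, each with 12 bases of flank, 5′ to 3′ on the gene's strand. Capitals mark the CCAAT and CCACG boxes, or their reverse complements where the element lies on the opposite strand.
Hspa5, chr2:34772013-34772055, plus strand: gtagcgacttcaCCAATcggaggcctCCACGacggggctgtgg
Hsp90b1, chr10:86705626-86705668, minus strand: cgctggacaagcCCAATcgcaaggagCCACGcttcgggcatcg
Hsp90b1, chr10:86705521-86705563, minus strand: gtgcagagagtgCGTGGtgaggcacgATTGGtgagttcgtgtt
Dnajc3, chr14:118937815-118937857, plus strand: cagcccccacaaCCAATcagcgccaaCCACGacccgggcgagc
Pdia6, chr12:17266479-17266521, plus strand: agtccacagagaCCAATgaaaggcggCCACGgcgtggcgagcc
Calr, chr8:84847063-84847105, minus strand: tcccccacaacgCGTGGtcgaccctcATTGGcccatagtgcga
Canx, chr11:50325788-50325830, minus strand: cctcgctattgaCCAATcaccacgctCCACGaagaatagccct
Creld2, chr15:88819508-88819550, plus strand: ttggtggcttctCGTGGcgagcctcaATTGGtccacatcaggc
Syvn1, chr19:6046520-6046562, plus strand: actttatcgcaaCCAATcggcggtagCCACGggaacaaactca
Derl3, chr10:75893230-75893272, plus strand: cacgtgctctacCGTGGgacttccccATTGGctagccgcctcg

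The Hspa5 match begins 65 bases before the start site. The whole stretch of 250 bases before that site, chr2:34771840-34772089 on the plus strand, is given to show how the element sits next to a TATA-like run and other CCAAT boxes, with only the full match in capitals.
Hspa5: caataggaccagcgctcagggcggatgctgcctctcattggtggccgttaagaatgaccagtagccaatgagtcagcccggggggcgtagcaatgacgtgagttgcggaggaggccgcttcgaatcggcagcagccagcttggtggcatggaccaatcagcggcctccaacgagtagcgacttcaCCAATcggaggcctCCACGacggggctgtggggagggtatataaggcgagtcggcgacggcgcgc

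Some of the branch genes carried another motif. The element bound by Atf4 together with C/EBP factors, searched as TGATGNAAN on both strands, was found in 3 of the 6 branch genes, in 0 of the 13 folding genes and in 3.95% of all windows. The fourth match was in Herpud1, a degradation gene. Capitals mark the element, which in Chac1, Trib3 and Herpud1 lies on the opposite strand; the Trib3 match begins at base 14, counting the start site as 1, and the other 3 lie before it.
Chac1, chr2:119351036-119351068, plus strand: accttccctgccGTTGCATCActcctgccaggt
Asns, chr6:7693212-7693244, minus strand: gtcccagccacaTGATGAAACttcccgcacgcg
Trib3, chr2:152344039-152344059, minus strand: gattagctcaggTTTACATCA
Herpud1, chr8:94386304-94386336, plus strand: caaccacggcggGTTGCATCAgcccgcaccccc

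A second form of the stress element, ERSE-II, is ATTGG, 1 base of any kind and CCACG. It was added to the search after the other matches were seen. It occurred in Herpud1 and Dnajb11 and in 0.0365% of all windows. Herpud1 was thus the only 1 of the 29 genes with a match to both the Atf4 motif and a stress element.
Herpud1, chr8:94386365-94386399, plus strand: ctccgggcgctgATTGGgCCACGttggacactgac
Dnajb11, chr16:22857840-22857862, plus strand: tccccggcggcgATTGGcCCACG
The box CCACG alone, which is part of both stress elements, was in 23 of the 29 genes and in 32.8% of all windows. The core of the Xbp1 site, TGACGTGG, was in 0 of the 29 and in 0.676% of all windows. A match describes letters in this window and does not show that a factor binds there.

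**Figure D1:**
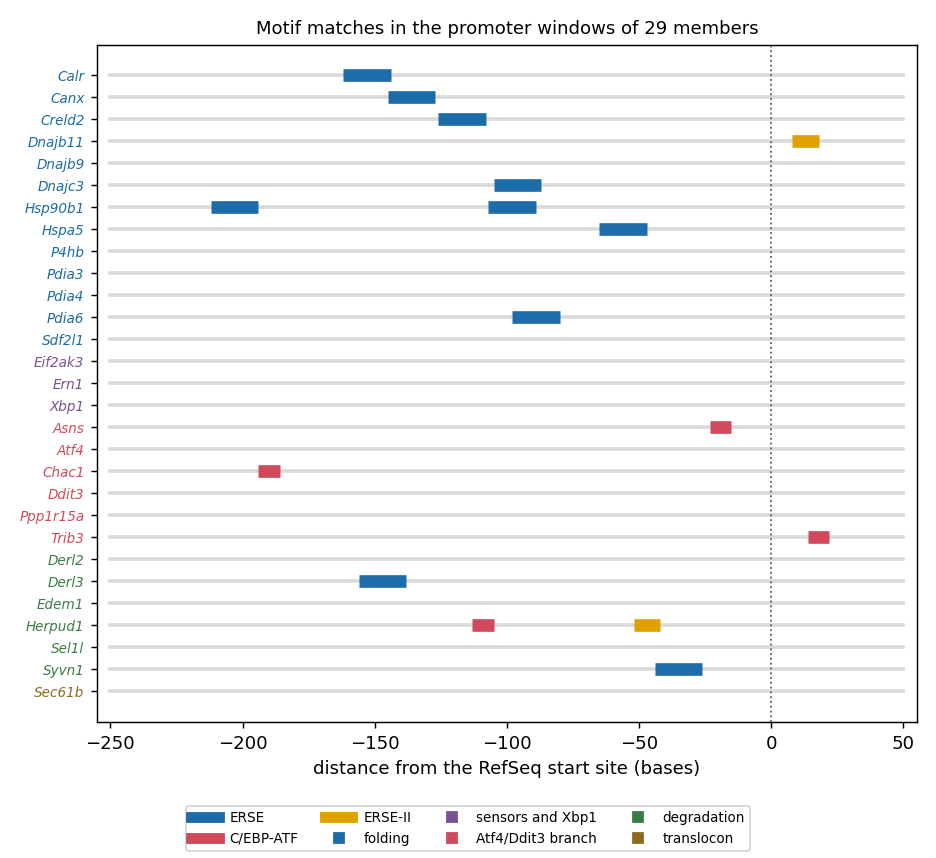
Positions of motif matches in the promoter windows of 29 genes, with the distance from the RefSeq start site in bases on the x axis and 1 gene per line, the gene names coloured by role. Blue bars (ERSE) fall on 7 folding genes and on Derl3 and Syvn1, red bars (Atf4 motif) on Asns, Chac1, Trib3 and Herpud1.

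The depth recovered from the steps of the deposited values was 101866056 reads for DMSO and 75287115 for GW3965. FPKM divide the fragments of a gene by its length and by the size of the library. A row counted as measured at a mean of at least 1 FPKM, which 11889 rows and 32 of the 33 genes met; Derl3 was below it. The log2 of (GW3965 FPKM + 1)/(DMSO FPKM + 1) had a median of 0.24 over the measured rows. It was subtracted from each gene's value, and the result is called the centred log2 ratio; adding 1 FPKM understates the change of low genes. On that scale 90% of rows lay between -0.27 and 0.28. With nothing added, the median FPKM ratio of measured rows was 1.25. Ratios are given with a 95% counting interval from estimated reads, which covers counting error only. As a check of the labels, 8 of 8 listed LXR target genes were at least 1.5-fold higher in the GW3965 library, with Abca1 at 19.9 and 261 FPKM.

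The endoplasmic reticulum genes were expressed at similar levels in both libraries, with a small displacement towards GW3965 in most but not all of them. In FPKM as deposited, 32 of the 33 were higher in the GW3965 library and 1, Syvn1, was lower, in a table whose median measured row was itself 1.25 times higher. Relative to the median row, 27 of the 32 measured genes were above it, as were 46.6% of 8705 measured protein-coding rows. Among genes with a mean of at least 5 FPKM, 22 of 26 were above, against 54.3% of protein-coding rows at that level. Of the 27, Ddit3, P4hb and Derl1 fell below the median row with 0.1 FPKM added. With the upper quartiles set equal, the median row was at 0.01. Ddit3 and P4hb were then just below 0 and Derl1 at 0.00. With nothing added, the counting interval lay wholly above the median ratio in 16 genes, wholly below it in 5 and held it in 11. The same counts were not made over all measured rows, so they cannot be read as particular to these genes. After centring, 0 of the 32 were 1.5-fold higher and 0 were 1.5-fold lower, where 1.38% and 0.336% of all measured rows were. At shares that low, a count of 0 among 32 genes does not set these genes apart from other rows. Without centring but with 1 FPKM still added, 1 gene, Dnajc3, was 1.5-fold higher and 0 lower, against 3.46% and 0.0757% of rows. With nothing added, the measured gene Chac1 was also past 1.5-fold, at a ratio of 1.63. The share of all rows past it with nothing added was not computed. Scaled to the same sum of FPKM, which moves the median row to 0.46, 16 of the 32 passed the limit. The share of all rows past it under this scaling was not computed, so that count cannot be read as a trait of these genes. The median centred log2 ratio of the 32 genes was 0.10, and 29 of them lay inside the central 90% of rows. Dnajc3 and Hsp90b1 were above that range and Syvn1 was below it.

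**Figure D2:**
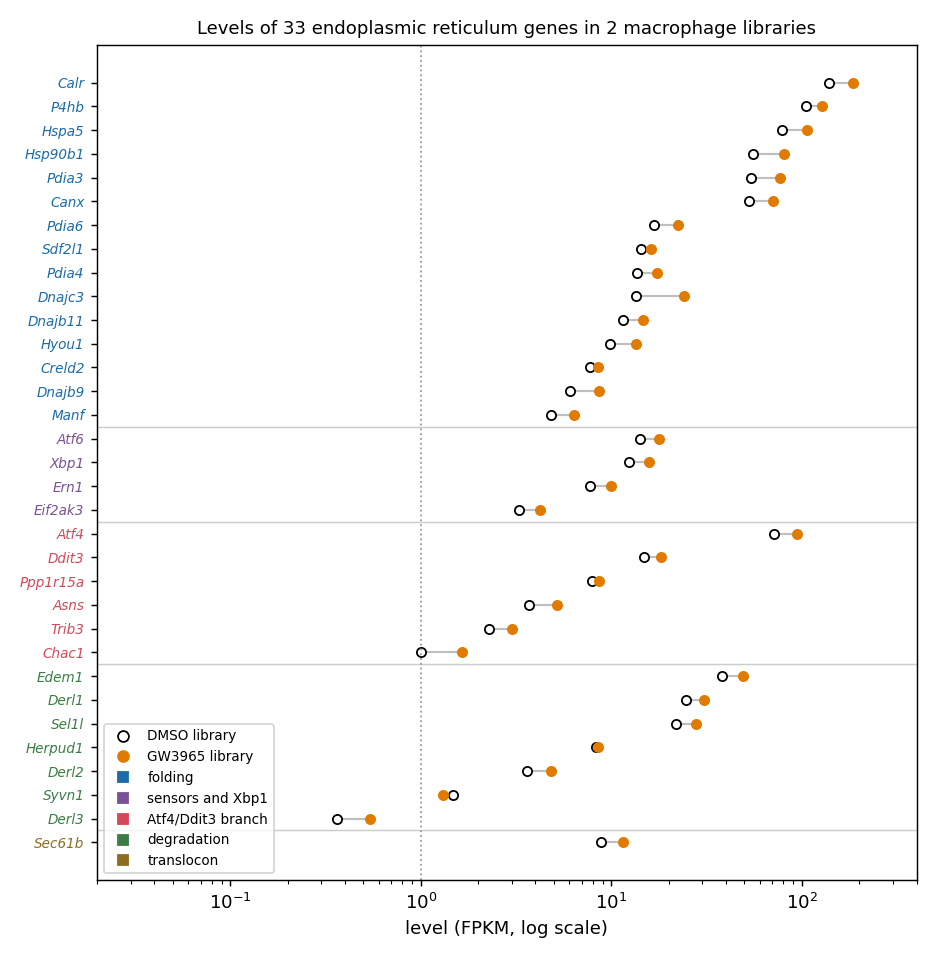
Level of each of the 33 genes in FPKM on a log axis, open circles for the DMSO library and filled circles for the GW3965 library, grouped by role and ordered by the DMSO level, with a dotted line at 1 FPKM. Levels run from Derl3 at 0.361 FPKM to Calr at 139 FPKM in DMSO, and the filled circle lies left of the open one in Syvn1 alone.

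The 15 folding genes were the most abundant of the set and had the highest median ratio. Their summed level was 582 FPKM under DMSO and 780 under GW3965. Their median centred log2 ratio was 0.17, with 13 of 15 above the median row. The 7 genes of the Hsp70 and Hsp90 system had a median of 0.20, the 4 disulfide isomerases 0.13 and the lectin chaperones Calr and Canx 0.17. With 0.1 FPKM added in place of 1, the folding median was 0.11.

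Hspa5 (BiP), the Hsp70 chaperone that binds unfolded chains and keeps the sensors inactive, stood at 78.5 FPKM under DMSO and 107 under GW3965. The ratio was 1.37 (1.35 to 1.39) and the centred value 0.20. Hsp90b1 (GRP94), the Hsp90 of this compartment, which folds integrins and Toll-like receptors, had 55.2 and 80.7 FPKM. Its ratio was 1.46 (1.44 to 1.49), the second highest of the folding genes, and its centred log2 ratio 0.30. Other annotated genes overlap 15.7% of its exon bases, and since the strand setting is not given, reads of those genes cannot be told apart from its own.

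Dnajc3 (p58IPK), a co-chaperone of Hspa5 first described as an inhibitor of eIF2 kinases, had the highest centred log2 ratio of all 33 genes. Its level was 13.4 FPKM under DMSO and 24.2 under GW3965. The ratio was 1.80 (1.75 to 1.86) and the centred value 0.56, just under the 1.5-fold limit of 0.58. Its level relative to Hspa5 thus differed between the libraries, with 5.85 FPKM of Hspa5 per FPKM of Dnajc3 in DMSO and 4.44 in GW3965. Dnajb9 (ERdj4), a co-chaperone that restrains Ern1, had 6.05 and 8.64 FPKM, with a ratio of 1.43 (1.33 to 1.53) and a centred value of 0.21. Hyou1 (GRP170), which exchanges the nucleotide of Hspa5, had 9.85 and 13.4 FPKM, a centred value of 0.17. Hspa5 was 7.97 times its level in DMSO and 7.99 times in GW3965, so this pair kept its proportion.

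The remaining co-chaperones lay nearer the median row. Dnajb11 (ERdj3) had 11.5 and 14.7 FPKM (centred 0.08). Sdf2l1, a partner of Dnajb11 in the same complex, had 14.3 and 16.1 FPKM. Its ratio of 1.12 (1.04 to 1.21) placed it below the median row, at a centred value of -0.09, although the 2 proteins act together. Manf and Creld2 are small proteins that the response induces and that cells partly secrete. Manf had 4.85 and 6.37 FPKM (centred 0.09, with 9.25% of its exon bases shared with other genes) and Creld2 7.70 and 8.54 FPKM (centred -0.11), the lowest of the folding genes.

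The disulfide isomerases, which form and rearrange disulfide bonds, had centred log2 ratios above 0 by unequal amounts, except that P4hb was at -0.01 with 0.1 FPKM added and just below 0 with the upper quartiles set equal. Pdia3 (ERp57), the partner of the lectin chaperones, had 54.0 and 76.4 FPKM, with a ratio of 1.41 (1.39 to 1.45) and a centred value of 0.25. P4hb (PDI), the most abundant of them, had 105 and 128 FPKM, with a ratio of 1.23 (1.21 to 1.25) and a centred value of 0.05. The counting intervals of these 2 genes do not overlap, and the level of P4hb over that of Pdia3 was 1.94 in DMSO and 1.68 in GW3965. Pdia6 had 16.7 and 22.5 FPKM (centred 0.17) and Pdia4 13.6 and 17.3 FPKM (centred 0.09).

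The lectin chaperones hold glycoproteins by their trimmed sugar chains. Calr (calreticulin) was the most abundant gene of the set, with 139 FPKM under DMSO and 185 under GW3965, rank 125 of the 11889 measured rows. Canx (calnexin), its membrane-bound relative, had 53.0 and 70.4 FPKM. Both had a ratio of 1.33 (1.32 to 1.35 for Calr, 1.31 to 1.35 for Canx), and Calr over Canx was 2.62 in DMSO and 2.63 in GW3965.

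**Figure D3:**
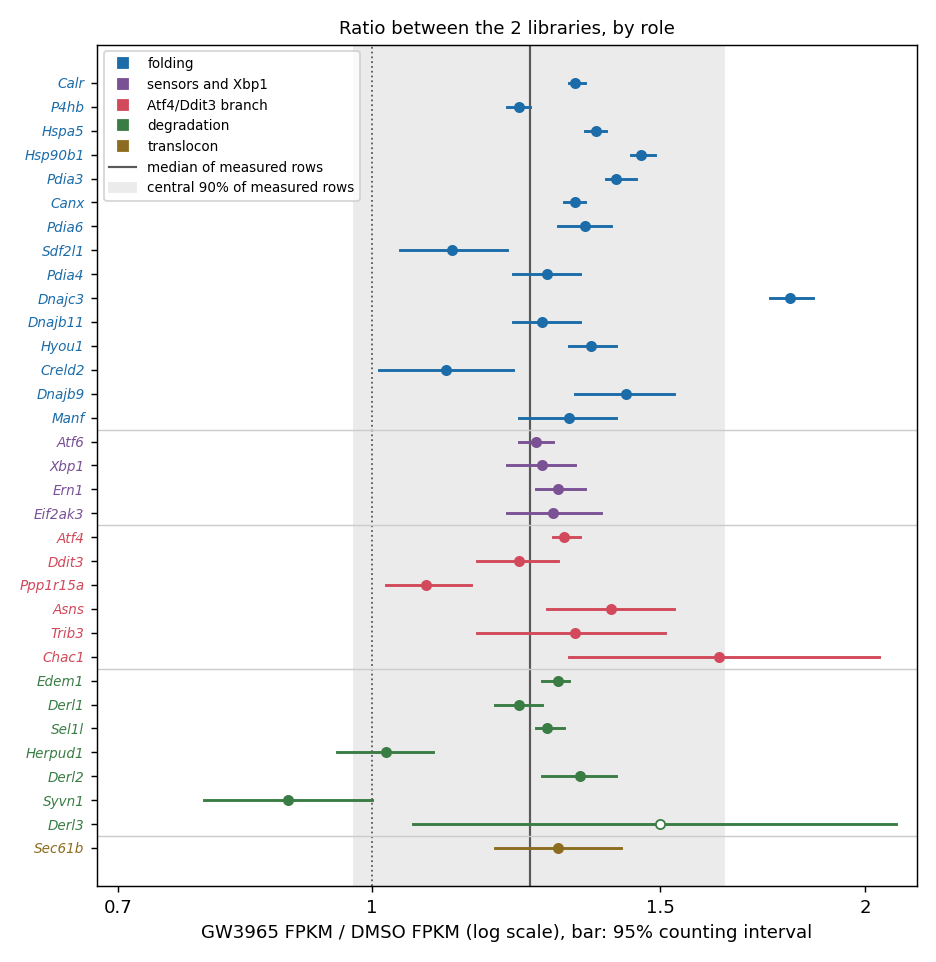
Ratio of GW3965 to DMSO FPKM with nothing added, on a log axis, for each gene in the order of the plot of levels; bars are 95% counting intervals, the solid line is the median of measured rows (1.25), the dotted line is 1 and the grey band holds the central 90% of measured rows (0.976 to 1.64). Dnajc3 lies right of the band and Syvn1 left of it, and the open circle is Derl3, which was below 1 FPKM.

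The genes of the Atf4 and Ddit3 branch, set against the folding genes, also lay close to the median row. Their summed level was 101 FPKM under DMSO and 131 under GW3965, most of it from Atf4. The median centred log2 ratio of the 6 genes was 0.10, with 5 of 6 above the median row and values from -0.14 to 0.15. The folding median exceeded the branch median by 0.07. The ranges overlap, since folding genes ran from -0.11 to 0.56. The top of the branch depends on the value added: Chac1 was at 0.15 with 1 FPKM added, 0.23 with 0.5 FPKM and 0.35 with 0.1 FPKM, where Dnajc3 at 0.54 was the one folding gene above it. Across the alternatives tried the difference ran from 0.02 with 0.1 FPKM added to 0.13 at a mean of at least 5 FPKM. It shrank with the value added, from 0.07 with 1 FPKM to 0.05 with 0.5 FPKM and 0.02 with 0.1 FPKM. The difference with nothing added was not among the alternatives. The plain ratios of the branch were 1.08 (Ppp1r15a), 1.23 (Ddit3), 1.31 (Atf4), 1.33 (Trib3), 1.40 (Asns) and 1.63 (Chac1). Those of Calr and Canx, in the middle of the order of the folding genes, were 1.33, so on that scale the groups lay closer together. With 1 library per group the difference could not be tested.

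Atf4, the transcription factor at the head of this branch, measured 71.4 FPKM under DMSO and 93.8 under GW3965, with a ratio of 1.31 (1.29 to 1.34) and a centred value of 0.15. Its output depends mainly on translation, which RNA levels do not show. Ddit3, the factor tied to cell death under lasting stress, had 14.9 and 18.3 FPKM, with a ratio of 1.23 (1.16 to 1.30) that holds the median row's 1.25 in its interval. Opposite-strand genes, among them Mars, overlap 4.73% of its exon bases.

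Among the targets of these factors, Asns, Trib3 and Chac1 were the 3 lowest of the branch. Asns, asparagine synthetase, had 3.70 and 5.17 FPKM, with a ratio of 1.4 (1.28 to 1.53). Trib3, a pseudokinase that Ddit3 and Atf4 induce, had 2.27 and 3.02 FPKM, with a ratio of 1.33 (1.16 to 1.51). Chac1, which degrades glutathione and is induced through Atf4, had 1.0 and 1.64 FPKM. That rests on an estimated 157 and 190 reads, with a ratio of 1.63 (1.32 to 2.04) and a centred value of 0.15. Ppp1r15a (GADD34), the phosphatase subunit that ends the eIF2 alpha signal, had 7.94 and 8.61 FPKM. Its ratio of 1.08 (1.02 to 1.15) was the lowest of the branch, and its centred value of -0.14 became 0.10 without centring.

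The sensors and Xbp1 were the most even of the groups, with centred log2 ratios from 0.05 to 0.10. Atf6 had 14.2 and 17.9 FPKM, Ern1 7.71 and 10.03 FPKM and Eif2ak3 3.26 and 4.22 FPKM. Their ratios were 1.26 (1.23 to 1.29), 1.30 (1.26 to 1.35) and 1.29 (1.21 to 1.38), with overlapping intervals. Eif2ak3 shares 8.05% of its exon bases with a gene on the opposite strand. Xbp1 had 12.4 and 15.7 FPKM, with a ratio of 1.27 (1.21 to 1.33). Values per gene do not separate its spliced from its unspliced mRNA, so they say nothing of Ern1 activity.

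The degradation genes, which carry misfolded proteins back to the cytosol for destruction, held both lowest ratios of the set. Syvn1 (HRD1), the membrane ubiquitin ligase at the centre of this route, measured 1.47 FPKM under DMSO and 1.31 under GW3965, from an estimated 715 and 470 reads. Its ratio was 0.889 (0.790 to 1.0) and its centred log2 ratio -0.34. Herpud1, an adaptor of that ligase, had 8.32 and 8.50 FPKM, with a ratio of 1.02 (0.953 to 1.09) and a centred value of -0.22. Sel1l, the partner that stabilises Syvn1, was on the other side of the median row, with 21.8 and 28.0 FPKM, with a ratio of 1.28 (1.26 to 1.31) and a centred value of 0.10.

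The other degradation genes lay near the median row. Edem1, a lectin that marks misfolded glycoproteins, had 37.9 and 49.1 FPKM (centred 0.12). Derl1 had 24.8 and 30.6 FPKM (centred 0.05) and Derl2 3.60 and 4.82 FPKM (centred 0.10); the derlins form part of the channel out of the compartment. Derl3, known mainly from secretory cells, had 0.361 and 0.542 FPKM. Its ratio of 1.5 rests on an estimated 70 and 77 reads, with an interval from 1.06 to 2.09. Sec61b, the small subunit of the channel through which new proteins enter, had 8.79 and 11.5 FPKM, with a ratio of 1.30 (1.19 to 1.42) and a centred value of 0.10.

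The promoter motifs shown above did not sort the centred log2 ratios into separate ranges. The 7 folding genes with an ERSE had a median centred log2 ratio of 0.17, from -0.11 (Creld2) to 0.56 (Dnajc3). The 6 folding genes with a window and no ERSE had a median of 0.09, from -0.09 (Sdf2l1) to 0.25 (Pdia3). Syvn1, with an ERSE that begins 44 bases before its start site, had the lowest value of the set. The 4 genes with an Atf4 motif ran from -0.22 (Herpud1) to 0.15 with 1 FPKM added, which understates the change of low genes. With nothing added, Chac1, Asns and Trib3 had ratios of 1.63, 1.40 and 1.33, and Herpud1 1.02. The branch genes with no match, Atf4, Ddit3 and Ppp1r15a, had 1.31, 1.23 and 1.08. Whether the motif has a part in this was not tested.

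The rest of the pathway was centred on the median row. Over 9 further lists with 143 measured genes, 72 were above the median row and 71 below, 1 was 1.5-fold higher after centring and 0 were lower, and the median centred log2 ratio was 0.00. The 31 other targets of Atf4 and Ddit3 had 20 measured members with a median of 0.04. Gdf15, a secreted stress cytokine, was the 1 gene past the limit, with 12.2 and 24.3 FPKM, with a ratio of 2.0 (1.90 to 2.12) and a centred value of 0.70. Sesn2, an inhibitor of growth signalling induced by stress, lay at the other end, with 3.33 and 2.94 FPKM, with a ratio of 0.883 (0.805 to 0.970) and a centred value of -0.38.

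Genes of protein entry and signal peptide removal, 23 measured, had a median centred log2 ratio of 0.04. Ssr3, a subunit of the translocon-associated complex, had 26.7 and 36.8 FPKM (centred 0.20). Srp54a, part of the signal recognition particle, had 4.40 and 3.76 FPKM (centred -0.43), a value that is uncertain because near-identical copies of this gene exist. The oligosaccharyl transferase, which attaches sugar chains, had 12 measured genes with a median of -0.01, led by Magt1 at 8.52 and 13.5 FPKM (centred 0.36) and Rpn1 at 32.9 and 44.2 FPKM (centred 0.17).

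Other oxidoreductases, 13 measured, had a median of -0.01. Tmx1 and Tmx3, membrane-bound thioredoxin-like proteins, had centred values of 0.29 and 0.27. Glycan quality control, 13 measured, had a median of -0.01, with Man1b1, a mannosidase, at -0.24 and Edem3 at 0.16. Other degradation genes, 20 measured, had a median of 0.00, with Tmub1 at -0.27 and the ubiquitin-conjugating enzyme Ube2g2 at -0.17.

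The cytosolic tRNA synthetases, many of them Atf4 targets, had 18 measured genes and a median of 0.04, with Dars at 0.16 and Vars at -0.33. Regulators of eIF2, 11 measured, had a median of 0.01, with Eif2s1, eIF2 alpha itself, at 0.16 and the phosphatase subunit Ppp1cc at -0.22. Genes that process or relay the sensors' signals, 13 measured, had a median of -0.04 and only 2 members above the median row. One of these was Mbtps2, the site-2 protease that releases Atf6, at 5.84 and 9.07 FPKM (centred 0.31). Wfs1, a membrane protein of the endoplasmic reticulum, was the lowest, with 46.8 FPKM under DMSO and 39.5 under GW3965, with a ratio of 0.845 (0.825 to 0.865) and a centred value of -0.48.

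A list mainly of chaperones of the cytosol and mitochondria was the nearest comparison. It had 30 measured genes and a median centred log2 ratio of 0.08, with 20 of 30 above the median row. The list also held Hspa13, an Hsp70 of the endoplasmic reticulum (centred 0.16), and Hsf1, a transcription factor (centred -0.14). Hsph1, an Hsp110 chaperone, had 5.54 and 10.2 FPKM (centred 0.54) and Hspa1a, a heat-inducible Hsp70, 0.902 and 2.08 FPKM (centred 0.45). The folding genes of the endoplasmic reticulum had a median of 0.17, and whether the 2 groups differ could not be tested with 1 library each.

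**Figure D4:**
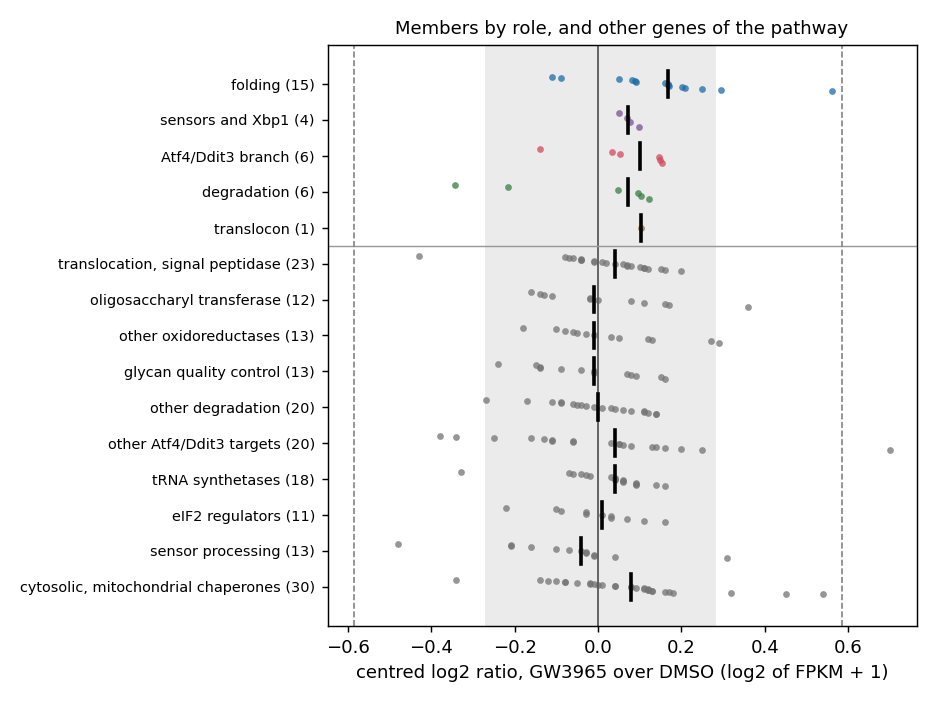
Centred log2 ratio of each measured gene, 1 point per gene, for the roles of the set (top 5 lines, coloured) and for 10 other lists (grey), with the number of genes in brackets and a black bar at each median; dashed lines mark 1.5-fold and the grey band the central 90% of measured rows (-0.27 to 0.28). Among the genes shown, Gdf15 at 0.70 is the single point past a dashed line.

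Markers of other cells were read beside these results, since in bulk RNA more RNA per cell and more cells of a kind cannot be told apart. Cells that secrete antibodies hold much of this folding machinery. Of 14 matched marker genes of B and antibody-secreting cells 7 were measured, and these had a median centred log2 ratio of 0.11. Summed over all 14, the level was 103 FPKM under DMSO and 166 under GW3965, with 0 of them at 0 in either library. Most of the rise in that sum was in Ighm, the IgM heavy chain, at 9.26 and 64.4 FPKM, a ratio of 6.95. Sdc1, which macrophages also express, had 84.6 and 89.2 FPKM. Other members of that list also had ratios above the median row, on low levels. Fkbp11, a chaperone-like isomerase of secretory cells, had 1.07 and 1.84 FPKM, with a ratio of 1.71 (1.46 to 2.0). The B cell genes Cd79a and Ms4a1 had 1.03 and 1.6 FPKM and 0.260 and 0.467 FPKM, with ratios of 1.55 (1.22 to 1.94) and 1.79 (1.45 to 2.21). Their centred log2 ratios, with 1 FPKM added, were 0.11 and -0.02. The plasma cell genes Igj (the joining chain), Mzb1 and Tnfrsf17 were at 0.0690 and 0.132 FPKM, 0.382 and 0.383 FPKM and 0.207 and 0.168 FPKM. Mesothelial and fibroblast markers, 7 of 13 measured, summed over all 13 to 21.1 and 31.9 FPKM, with Dcn at 6.91 and 11.6 FPKM, and 0 of the 13 were at 0. The median centred log2 ratio of the 7 measured markers was 0.17, the same value as for the folding genes. The part of both kinds of marker in the small displacement of the folding genes was not tested. The macrophage markers, 9 of 11 measured, had a median centred log2 ratio of 0.04, and Lyz2 had 4052 and 4822 FPKM, Mpeg1 635 and 841 FPKM and Cd68 235 and 238 FPKM.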

How the data were processed

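The authors deposited 1 table of FPKM values, a column for each library. STAR 2.3.0, HTSeq 0.5.4p3 and the build GRCm38 are listed in the submitters' processing notes, with no role or order; annotation, strand setting and filters were not stated. From the deposited FPKM the log2 ratio of values with 1 FPKM added was computed and centred on the median of rows with a mean of at least 1 FPKM. Relative depth (factor 1.353) came from the steps of low values. Of 29845 rows below 0.3 FPKM in DMSO, 96.1% fitted whole reads up to 60 in both libraries, against 0.550% with the factor moved by 1%. Absolute depth came from GENCODE M21 exon lengths reduced by 99 bases, at which 91 of 4798 rows pointed to 1 depth, against 37 at the next best reduction. Most lengths differ from those the authors used, so reads per gene are estimates. Intervals are exact conditional (Clopper-Pearson) ones. The depth step was checked on simulated data, in which a larger share of genes kept the annotated length than pointed to 1 depth here. That was an easier case for absolute depth than these libraries.

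The members, lists and alternatives were chosen with earlier results of these data known, among them a displacement of these genes, so nothing here is independent support for it. All members are named, with the 2 measured genes of largest absolute centred ratio in each other list and, of the marker lists, abundant genes or those a statement turns on. Symbols of the gene lists were also matched through RefSeq synonyms, and Hspb1, Igkc and Iglc1 had no match. Genes found by the promoter search were matched by the same symbol only. Protein sequences were not used here. Promoters are RefSeq's (GRCm38.p6), not the start sites of these cells. Tools were numpy 2.4.6 and scipy 1.17.1 for the intervals, pandas 2.3.3 for tables and matplotlib 3.10.9 for figures, in Python 3.11.15. Alternatives were pseudocounts of 0.1 and 0.5 FPKM, other filters, other centring or scaling, a 2-fold limit and other gene groups.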

Additional observations from a re-analysis of the deposited data

How the results depend on the processing

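No paired analysis was possible because both groups hold 1 library. The count of genes 1.5-fold higher, 0 in the main setting, was 1 (Dnajc3) with no filter on low values and with no centring. It was 16 with the same sum of FPKM, a scaling that moves the median of measured rows to 0.46. For no filter and for the same sum, the share of all rows past the limit was not computed. The folding median of 0.17 was 0.11 and 0.14 with 0.1 and 0.5 FPKM added, 0.34 with no filter, 0.14 at a mean of at least 5 FPKM, 0.41 with no centring, 0.12 with the same upper quartile, 0.18 centred on protein-coding rows, 0.67 with the same sum and 0.20 for the Hsp70 and Hsp90 system. The branch median of 0.10 was 0.27 with no filter, 0.01 at a mean of at least 5 FPKM, where 3 of its 6 genes are left, 0.34 with no centring and 0.55 with the same sum. Their difference of 0.07 was 0.02 with 0.1 FPKM added, 0.13 at a mean of at least 5 FPKM, 0.03 with the same upper quartile, 0.12 with the same sum, 0.10 for the Hsp70 and Hsp90 system and 0.12 with the branch joined to its other targets. Of 250 values of single genes 17 fell on the other side of 0, among them Ddit3, P4hb and Derl1 with 0.1 FPKM added. The cause of these moves was not tested apart from genes that a filter removes and scalings that shift all rows. The lowest genes are limited by depth, 1 read over 1 kb being 0.0109 FPKM under DMSO and 0.0147 under GW3965.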

Other observations

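The ERSE search, set against the rest of the genome after the matches in the members were seen, found the full element in promoter windows of 37 genes in all. Besides the 9 members, 19 had a row in the table and 4 of those were measured. Hnrnpa3, an RNA-binding protein, measured 15.8 FPKM under DMSO and 21.8 under GW3965 (centred log2 ratio 0.20). Alg12, a mannosyltransferase that builds the sugar chain attached to new proteins in the endoplasmic reticulum, had 1.99 and 2.33 FPKM (centred -0.09). Pan2 and Xlr3b had centred values of -0.07 and 0.03. The measured genes with this element were thus mostly members of the set described above.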
